A study of Saccharomyces cerevisiae with 10 samples.

Results

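The transient part of the heat shock response was examined in 5 of the 10 arrays of a Saccharomyces cerevisiae heat shock series, those of strain DBY8778. The arrays at 5, 15 and 30 min of heat (3 arrays) were set against those at 0 and 60 min (2 arrays), and the difference of the means of these groups is called the pulse difference. Of 5983 genes in the table, 5526 were measured on each of the 5 arrays and were tested, and the choice of arrays used no measured value. Each array hybridised total RNA of 1 sample against a reference RNA that the labels do not describe. DBY8778 is read as the wild type, since the labels name a wild type and a kin82 mutant and no other strain. The other 5 arrays hold a strain lacking KIN82, a protein kinase gene of the family that regulates plasma membrane lipid flippases, at the same 5 times, and KIN82 itself was not analysed here. The labels give neither temperatures nor further alleles, nor whether the samples of a strain share 1 culture. The titles number the heat shock of DBY8778 as 2 and mark the deletion arrays at 0 and 60 min as repeats. The arrays of each strain form a time course of their own, so strain and time course cannot be told apart.

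When yeast cells meet heat, the transcription factor Hsf1 is released to drive genes of protein folding, and Msn2 and Msn4 enter the nucleus to drive a broad set of general stress genes. At the same time the nutrient-responsive programme that makes ribosomes is turned down, both the assembly factors of the nucleolus and the ribosomal proteins. In well-studied strains much of this response is temporary and fades as cells adapt to the new temperature.

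All values are log2 ratios of a sample over the reference, with each array centred on its median, and 1 unit is a 2-fold difference. The base of the logarithm was not stated and was read as 2. The direction was also not stated. Sample over reference is the likely direction, because 29 of 30 chaperones driven by Hsf1 (96.7%) were higher at 15 than at 0 min. The sign of the chaperone list is therefore set by construction. The ratios of the wild-type arrays correlated with each other across genes at 0.55 to 0.93. The spread of the arrays moved with the contrast: the median absolute deviation over all genes was 0.54 at 0 min and 0.54 at 60 min, and 0.78, 0.86 and 0.73 at 5, 15 and 30 min. The part of this wider spread in the pulse differences was not tested. Wherever 5 values follow each other below, they stand for 0, 5, 15, 30 and 60 min.

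In the pulse 61 genes rose and 77 fell, and genes of stress defence and of trehalose and glycogen metabolism stood among the rises and genes of ribosome assembly among the falls. In limma with Benjamini-Hochberg adjustment over all 5526 genes, 138 genes (2.5%) passed an adjusted p of 0.05, which is 1.1% higher and 1.39% lower. Here and below, genes said to have risen, fallen or been called are those that passed. The rises ran from 1.26 to 3.63 and the falls from -1.18 to -3.12, so all 138 changed by at least 2-fold. Of the rises, 33 reached 4-fold, as did 25 of the falls. Each time is a single array. The test therefore sets the pulse difference against the variation among 5, 15 and 30 min and between 0 and 60 min, and its p-values measure only the spread between these samples. Adjusted p lay between 0.0199 and 0.0494. Without the array at 0 min or the array at 60 min 0 genes passed, with 711 and 973 genes at an unadjusted p under 0.05, and without the array at 15 min 22 passed. Leaving out the array at 5 or at 30 min gave 260 and 242 calls. With quantile normalization, which gives all arrays the same spread, 0 genes passed (685 at an unadjusted p under 0.05), and 129 of the 138 kept their direction. With arrays scaled to equal median absolute deviation 2 passed and all 138 kept their direction. Over all genes tested 1216 (22%) had an unadjusted p under 0.05 and 745 (13.5%) differed by at least 2-fold. As a simpler count, 1071 genes (19.4%) had all pulse arrays above both end arrays and 1081 (19.6%) had them all below. The gene lists used below were chosen with earlier results of these data known, so their shares beside those of all genes are a description.

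ARO9, the aromatic aminotransferase that starts the breakdown of aromatic amino acids, had the largest rise among the genes that passed. Its levels were 0.34, 4.16, 4.68, 3.16 and 0.40, a pulse difference of 3.63 ± 0.42 (SE, 5 arrays), or 12.3-fold (adjusted p = 0.0352). The end arrays were nearly equal and the pulse arrays all lay far above them. ARO10, the decarboxylase acting next in that pathway, had levels of -0.26, 3.29, 4.74, 2.91 and 0.75 and rose by 3.41 ± 0.55 (adjusted p = 0.0376). The rest of the list of 14 tested genes of aromatic, arginine and proline breakdown had 0 further calls. CAR2 and CAR1, which degrade arginine to glutamate semialdehyde, stood at 1.85 ± 0.40 (adjusted p = 0.0555) and 1.81 ± 0.57 (adjusted p = 0.128). The median pulse difference of that list was 0.71, beside 0.03 over all genes tested, and 0.83 with quantile normalization.

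**Figure D1:**
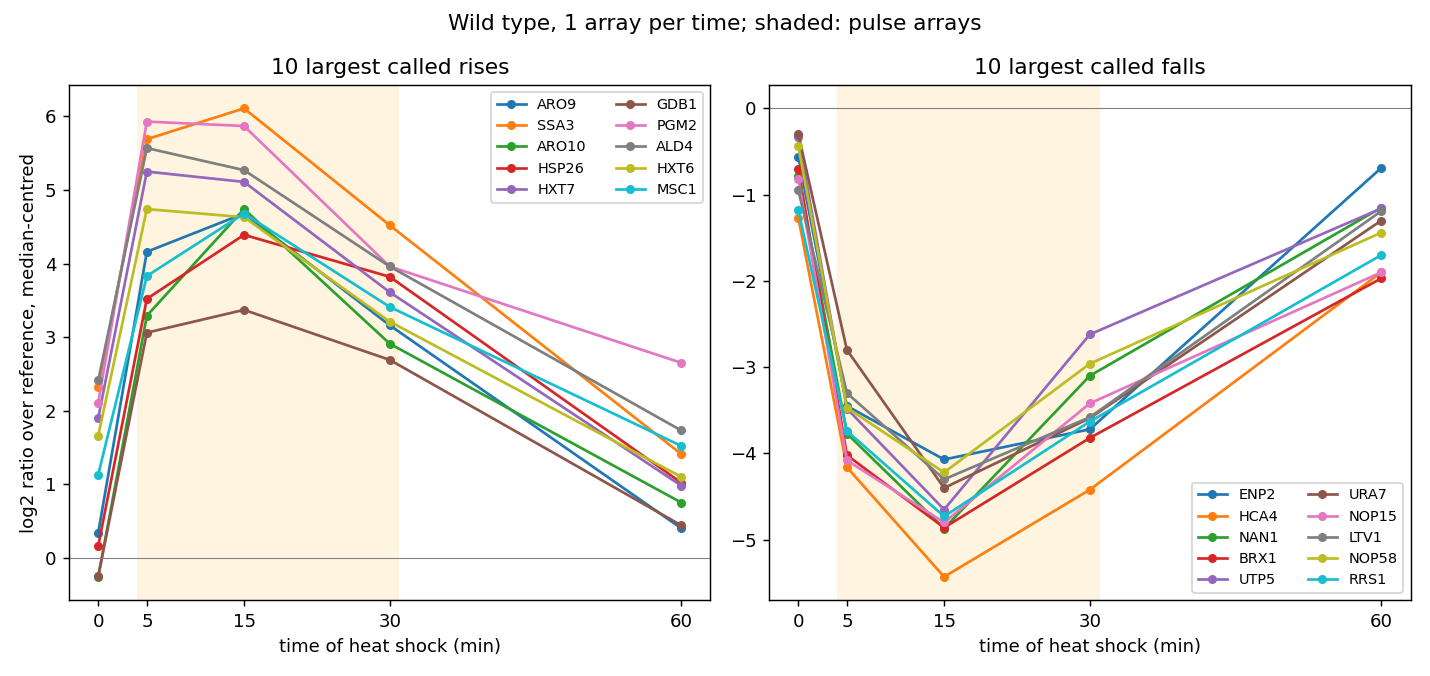
Log2 ratio over the reference (vertical axis, array median at 0) against time of heat shock in minutes (horizontal axis) for the 10 genes with the largest called rises (left) and the 10 with the largest called falls (right); each point is 1 wild-type array and the shaded range holds the pulse arrays. ARO9 returned from 4.68 at 15 min to 0.40 at 60 min, and ENP2 from -4.07 to -0.69.

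Of 30 tested chaperone genes driven by Hsf1, 8 rose and 0 fell, and 22 had all pulse arrays above both ends. Over all genes tested 1.1% rose and 19.4% had all pulse arrays above both ends. Their median pulse difference was 1.47, and 0.15 with quantile normalization. SSA3, a heat-inducible cytosolic Hsp70, had levels of 2.32, 5.69, 6.11, 4.52 and 1.41 and rose by 3.58 ± 0.49 (adjusted p = 0.0369). HSP26, a small heat shock protein that holds unfolding proteins, had levels of 0.16, 3.52, 4.39, 3.82 and 1.02 and rose by 3.32 ± 0.36 (adjusted p = 0.0352). In both genes the lowest pulse array stood more than 2 units above the higher end array. The Hsp90 pair HSC82 and HSP82 rose by 1.99 ± 0.28 and 1.76 ± 0.29, but their sequences are close and the probes may not separate them. The same holds for the Hsp70 genes SSA1 to SSA4. CPR6, a cyclophilin bound to Hsp90, rose by 2.02 ± 0.34. UBI4, the polyubiquitin gene, rose by 1.79 ± 0.34 and HSP60, the mitochondrial chaperonin, by 1.75 ± 0.31. STI1, which links Hsp70 to Hsp90, rose by 1.83 ± 0.36, and stood at -0.06 with quantile normalization.

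Most chaperone genes stood above the reference at 0 min and were highest at 5 min. At 0 min 22 of the 30 stood above 1, and at 60 min 22 of the 30 were lower than at 0 min. The extreme fell at 5 min in 21 of 30 and at 15 min in 9. With arrays of equal median absolute deviation 19 of 30 had it at 5 min, and with quantile normalization 7 had it at 5 min and 10 at 0 min. BTN2, which gathers misfolded proteins into deposits, had levels of 6.24, 7.16, 6.57, 4.73 and 3.30, so that its 0 min array lay above its 30 min array. Its pulse difference was 1.38 ± 0.92 (adjusted p = 0.438). HSP104, the disaggregase, had levels of 4.03, 7.20, 6.33, 4.73 and 3.14 and a pulse difference of 2.50 ± 0.65 (adjusted p = 0.0847). All its pulse arrays lay above both ends, but they spanned more than 2 units. HSP42, a small heat shock protein, had levels of 3.89, 6.01, 5.15, 3.83 and 2.34 (1.88 ± 0.66, adjusted p = 0.154), and CUR1, a sorting factor related to BTN2, 3.34, 4.36, 3.55, 2.46 and 1.94 (0.82 ± 0.59, adjusted p = 0.48). Both groups of arrays overlapped in these 2 genes. With quantile normalization HSP42 turned to -0.09 and CUR1 to -0.96, and BTN2 turned to -0.74 with equal median absolute deviation and to -0.09 without the 60 min array. FES1, an Hsp70 nucleotide exchange factor picked after its values were seen, was at 4.90 at 5 min and at 0.93 at 60 min, with 2.58 at 0 min.

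The other Hsp70 genes did not pass. SSA4, heat-inducible like SSA3, had levels of 2.12, 5.71, 5.24, 3.20 and 1.49 (2.91 ± 0.67, adjusted p = 0.0646). SSA1 and SSA2, which are also made without stress, stood at 1.27 ± 0.34 (adjusted p = 0.0885) and 1.17 ± 0.39 (adjusted p = 0.141). In all 3 the pulse arrays lay above both end arrays, but SSA1 turned to -0.30 and SSA2 to -0.02 with quantile normalization.

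**Figure D2:**
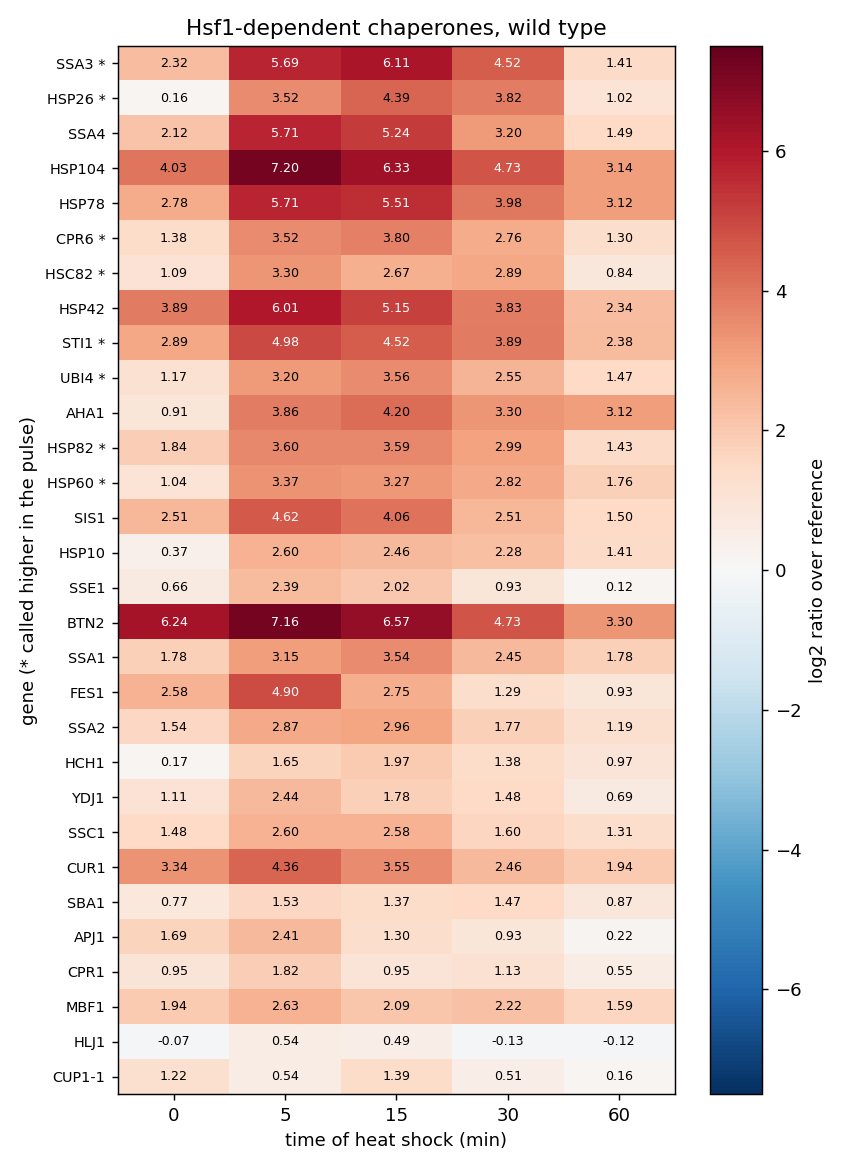
Log2 ratio over the reference (colour and printed value) of the 30 tested chaperone genes driven by Hsf1 (rows, ordered by pulse difference) on the 5 wild-type arrays (columns, time in minutes); a star marks the 8 genes called higher. BTN2 stood at 6.24 at 0 min and 3.30 at 60 min, whereas SSA3 went from 2.32 to 6.11 at 15 min and 1.41 at 60 min.

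General stress genes gave more rises than any other list. Of 31 tested targets of Msn2 and Msn4, 18 rose and 0 fell, beside 1.1% of all genes that rose. All pulse arrays lay above both ends in 25 of the 31, beside 19.4% of all genes. Their median pulse difference was 2.16, and 0.77 with quantile normalization. GDB1, the glycogen debranching enzyme, had levels of -0.25, 3.06, 3.37, 2.69 and 0.44 and rose by 2.94 ± 0.32 (adjusted p = 0.0352). PGM2, which makes glucose 1-phosphate for glycogen and trehalose, rose by 2.87 ± 0.58, and ALD4, a mitochondrial aldehyde dehydrogenase, by 2.86 ± 0.48. MSC1 rose by 2.65 ± 0.39. For this list, 25 of 31 genes were higher at 60 than at 0 min, with a median of 1.05 at 0 min and 1.73 at 60 min. HSP12, a membrane-bound stress protein, had a large step of this kind, with levels of -0.80, 4.35, 5.77, 5.73 and 3.69. Its pulse difference of 3.84 ± 1.13 was larger than that of ARO9 but did not pass (adjusted p = 0.107), with the 60 min array 4.49 above the 0 min array. CTT1, the cytosolic catalase, lacked a value at 60 min and was not tested, and its other levels were 0.94, 3.31, 4.93 and 2.82.

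Rises in trehalose, glycogen and hexose genes came in lists that share genes with the Msn2 and Msn4 list. Of 21 tested genes of trehalose and glycogen metabolism 5 rose and 0 fell, beside 1.1% of all genes that rose. TSL1, a regulatory subunit of trehalose synthase, had levels of 3.34, 6.26, 6.01, 5.10 and 3.61 and rose by 2.32 ± 0.37. TPS1, the catalytic trehalose 6-phosphate synthase, had levels of 1.72, 3.66, 3.84, 3.01 and 1.77 and rose by 1.76 ± 0.30. In both, the end arrays differed by less than 0.5 and all pulse arrays lay above them. TPS2, the phosphatase that completes trehalose, stood at 1.33 ± 0.34 (adjusted p = 0.0818), and NTH1, the trehalase that breaks it down, at 2.0 ± 0.46 (adjusted p = 0.0644). With quantile normalization TPS2 turned to -0.40, while TSL1 and TPS1 stood at 0.23 and 0.17 and NTH1 at 0.77. Of 12 hexose transporters and kinases 4 rose, beside 1.1% of all genes. They were HXT7 (3.22 ± 0.52) and HXT6 (2.81 ± 0.47), high-affinity glucose transporters, HXK1, a hexokinase (2.53 ± 0.37), and GLK1, glucokinase (1.87 ± 0.26). HXT6 and HXT7 are near-identical, so their values may be 1 signal. The median of the 12 was 0.57, and 0.14 with quantile normalization, and 4 had negative differences. In 2, beside 19.6% of all genes, every pulse array lay below both ends. One of these, HXT1, a low-affinity transporter picked after its values were seen, had levels of 0.37, -1.76, -1.24, -1.20 and -0.42 (-1.38 ± 0.32, adjusted p = 0.0667). GLK1 stood at -0.09 with quantile normalization. The other glycolytic enzymes had 0 calls, and the median of the 21 glycolysis genes was 0.08, which turned to -0.36 with quantile normalization. PFK1, a subunit of phosphofructokinase, stood at -0.90 ± 0.24 (adjusted p = 0.0885).

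Mitochondrial and iron genes gave smaller sets. CIT1, citrate synthase, rose by 2.05 ± 0.27 and MDH1, mitochondrial malate dehydrogenase, by 1.48 ± 0.26, the 2 calls among 24 genes of the tricarboxylic acid cycle. PRX1, a mitochondrial peroxiredoxin, had levels of 0.96, 3.12, 4.39, 3.68 and 1.44 and rose by 2.52 ± 0.39. It was the only call among 27 oxidative stress genes, beside 2.5% of all genes called. In the iron regulon 3 of 25 genes rose, beside 1.1% of all genes. FIT2, a cell wall mannoprotein that holds iron carriers, had levels of 0.42, 2.50, 3.34, 2.63 and 0.26 (2.49 ± 0.31) and FIT3, of the same kind, -0.12, 1.86, 2.90, 2.34 and 0.14 (2.35 ± 0.34). ISU1, the scaffold for iron-sulfur clusters, rose by 1.31 ± 0.25. The median of the iron list was 0.12, near that of all genes, and 11 of the 25 had a negative difference. In 7 every pulse array lay above both ends and in 6 below both, beside 19.4% and 19.6% of all genes. YHB1, the nitric oxide dioxygenase, had a negative difference that did not pass, with levels of 1.77, -0.43, -2.58, -2.65 and -1.16 (adjusted p = 0.217).

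Of the 61 rises 21 lay in no list, and the following genes were picked among them after their values were seen. NCE103, carbonic anhydrase, rose by 2.35 ± 0.44 and ATO2, of an ammonium and acetate transporter family, by 2.37 ± 0.45. TPO1, a polyamine exporter, had levels of -0.01, 2.69, 2.32, 1.32 and -0.12 and rose by 2.18 ± 0.40. NCE102, which belongs to the eisosomes of the plasma membrane, rose by 1.49 ± 0.29. LSP1, also of the eisosomes, does lie in a list, that of cell wall integrity, and rose by 1.84 ± 0.35. It was the only call among the 25 tested genes of that list, beside 2.5% of all genes called. RPM2, the protein part of mitochondrial RNase P, rose by 1.31 ± 0.24 and PUS4, a tRNA pseudouridine synthase, by 1.46 ± 0.24.

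Ribosome production held 39 of the 77 falls. Of 151 genes tested in the lists of small subunit processome and 40S assembly, 60S assembly, small nucleolar ribonucleoproteins, and RNA polymerases I and III with their factors, these 39 made up 25.8%, and 0 rose. Over all genes tested 1.39% fell. ENP2, a nucleolar protein of small subunit assembly, had levels of -0.56, -3.45, -4.07, -3.72 and -0.69. It fell by 3.12 ± 0.27 on the log2 scale, or 8.71-fold, with the lowest adjusted p of all genes (0.0199). Its pulse arrays spanned less than 1 unit and its end arrays were nearly equal. HCA4, an RNA helicase of 18S maturation, had levels of -1.27, -4.16, -5.43, -4.42 and -1.90 and stood at -3.08 ± 0.41. NAN1 (-2.95 ± 0.48) and UTP5 (-2.84 ± 0.56), of the subcomplex that binds the nascent ribosomal transcript, and LTV1 (-2.66 ± 0.33), needed for export of the small subunit, also fell. In all, 14 of 47 small subunit genes fell and 40 had every pulse array below both ends, beside 1.39% and 19.6% of all genes. Their median was -1.49 (-0.35 with quantile normalization).

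Of 57 assembly factors of the large subunit 19 fell, and 49 had every pulse array below both ends, beside 1.39% and 19.6% of all genes. Their median was -1.53, and -0.38 with quantile normalization. BRX1, an early 60S factor, had levels of -0.70, -4.02, -4.86, -3.82 and -1.97 (-2.90 ± 0.45), and NOP15 -0.82, -4.08, -4.80, -3.42 and -1.90 (-2.74 ± 0.46). At 60 min both were still more than 1 unit below 0 min. RRS1 (-2.59 ± 0.38) and ERB1 (-2.53 ± 0.49) fell too, whereas NOP7, the partner of ERB1, stood at -2.68 ± 0.58 (adjusted p = 0.0555). Of 14 tested genes of small nucleolar ribonucleoproteins and their assembly 3 fell: NOP58 (-2.61 ± 0.44) and NOP1, the methyltransferase (-1.93 ± 0.31), of the box C/D class, and NHP2 of the H/ACA class (-1.86 ± 0.36). NOP56, the partner of NOP58, had levels of 0.79, -2.17, -4.39, -2.55 and -0.54 and a larger difference, -3.16 ± 0.67, that missed the threshold (adjusted p = 0.0526). NSR1, yeast nucleolin, had no value at 15 min and was not tested, at -0.46, -3.69, -3.77 and -2.29 on the arrays of 0, 5, 30 and 60 min.

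Of 33 tested genes of RNA polymerases I and III, which hold 19 polymerase subunits beside transcription factors and a repressor, 3 fell, all of them subunits. Over all genes tested 1.39% fell. RPA190, the largest subunit of polymerase I, had levels of -0.52, -3.21, -4.10, -2.78 and -1.50 (-2.35 ± 0.45, adjusted p = 0.046). RPA34, also of polymerase I, stood at -1.86 ± 0.37 and RPC40, shared by both enzymes, at -1.82 ± 0.36. Of 31 tested genes of purine and pyrimidine synthesis 4 fell. URA7, CTP synthase, had levels of -0.30, -2.80, -4.40, -3.59 and -1.30 (-2.80 ± 0.49). IMD4, an IMP dehydrogenase of guanine nucleotide synthesis, stood at -2.46 ± 0.45, PRS3, a phosphoribosyl pyrophosphate synthetase, at -1.53 ± 0.30 and URA2, which starts pyrimidine synthesis, at -1.50 ± 0.26.

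**Figure D3:**
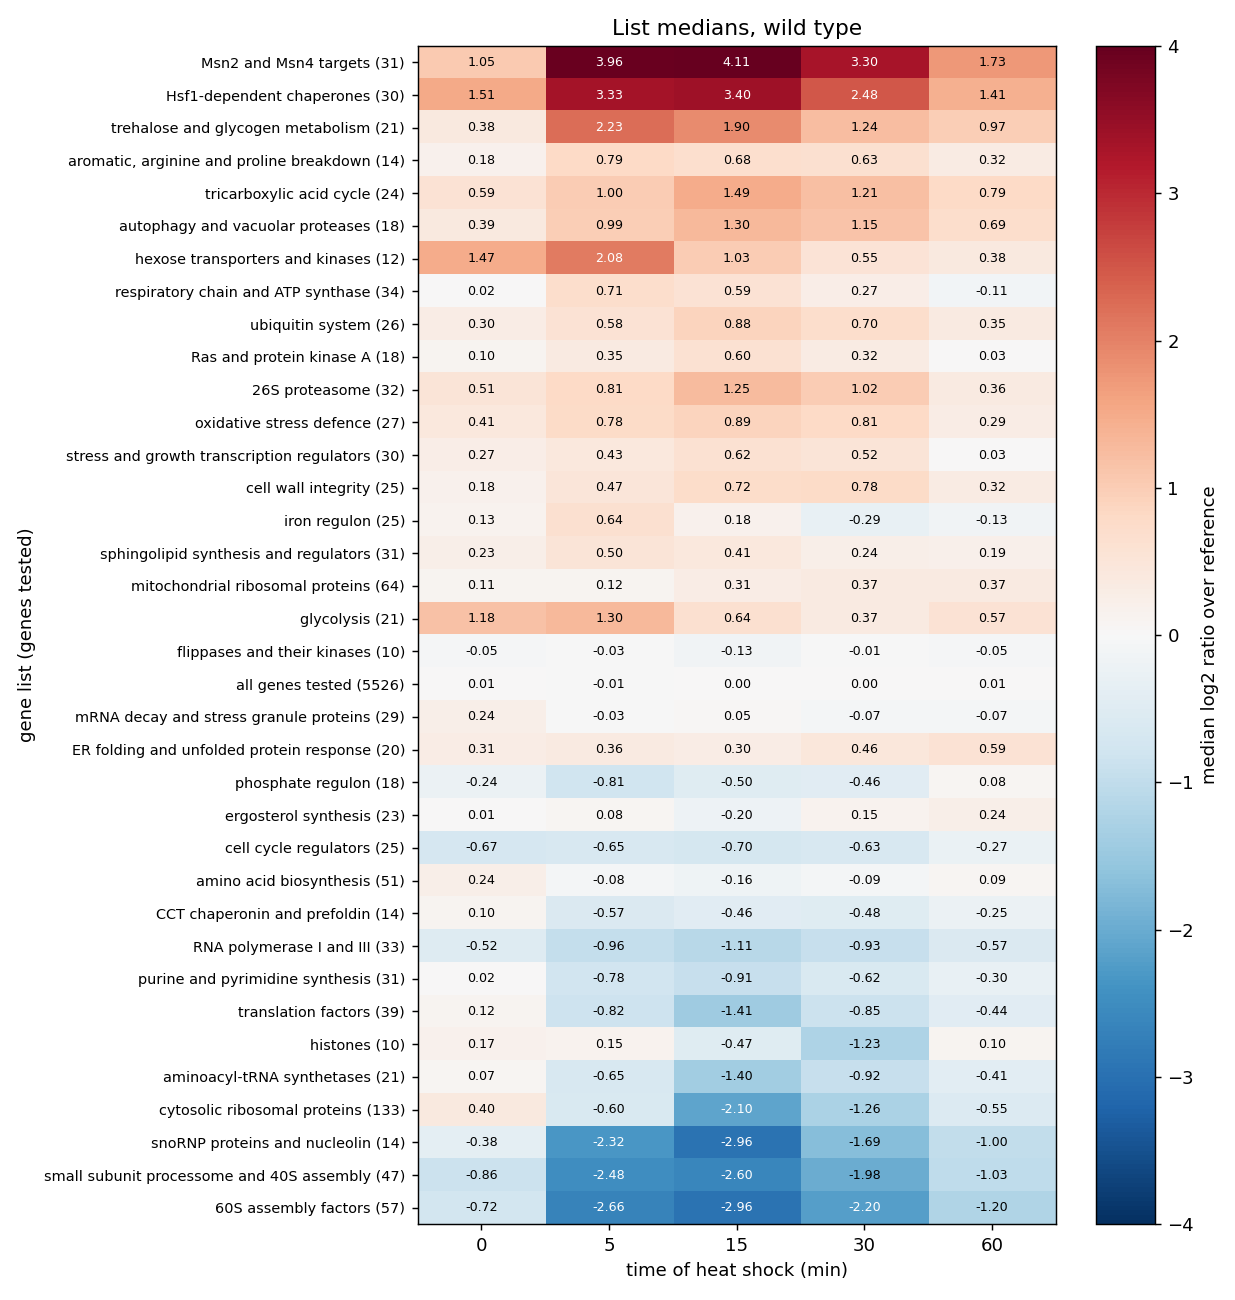
Median log2 ratio over the reference (colour and printed value) of the genes tested in each of the 35 lists and of all genes tested (rows, with the number of genes) on the 5 wild-type arrays (columns, time in minutes). The 60S assembly list went from -0.72 to -2.96 at 15 min, ribosomal proteins from 0.40 to -2.10, and histones were lowest, at -1.23, at 30 min.

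Among the falls 33 lay in no list, and those named next were picked after their values were seen. Genes of tRNA methyltransferases were among them, TRM1 (-1.92 ± 0.34), TRM11 (-1.69 ± 0.33), NCL1 (-1.53 ± 0.25) and TRM7 (-1.42 ± 0.26), and TRM11 stood at 0.23 with quantile normalization. MTR4, the helicase of the nuclear exosome, fell by 2.19 ± 0.37 on the log2 scale. FUI1, the uridine permease, had levels of -0.27, -2.60, -2.92, -1.92 and 0.20 (-2.44 ± 0.34), and LHP1, the yeast La protein, stood at -1.84 ± 0.34.

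Cytosolic ribosomal protein genes had large differences and 0 calls. Of 133 tested, 132 had a negative difference, 102 differed by at least 2-fold, beside 13.5% of all genes, and 90 had an unadjusted p under 0.05, beside 22%. In 74 all pulse arrays lay below both ends, beside 19.6%. Differences ran from -2.16 to 0.20 with a median of -1.29 (-1.03 with quantile normalization), and the lowest adjusted p was 0.0504. RPS6B, a small subunit protein, had levels of 0.78, -0.81, -2.82, -1.77 and -0.06 (-2.16 ± 0.55, adjusted p = 0.0807). RPS8B had levels of 1.16, -0.23, -2.34, -1.23 and 0.62 (adjusted p = 0.0806). In both the arrays did not overlap, but the 5 min array lay far above the 15 min array. Over the list the range among 5, 15 and 30 min had a median of 1.53, and 128 of 133 genes were lowest at 15 min, with 97 of 133 so after quantile normalization. Many ribosomal protein genes are near-identical pairs that probes may not separate. The 39 translation factors (median -0.77) and 21 aminoacyl-tRNA synthetases (median -0.97) also had 0 calls by limma, with 21 and 15 at an unadjusted p under 0.05, beside 22% of all genes. YEF3, elongation factor 3, had levels of 0.70, -1.61, -3.89, -2.19 and -0.85 (adjusted p = 0.0948).

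Size alone did not decide a call. Of the 48 genes with a pulse difference of at least 2 units 33 were called, and of the 59 at or below -2 units 25 were. In the called genes the range among 5, 15 and 30 min had a median of 0.88 and the distance between 60 and 0 min a median of 0.38. In the 49 large differences that were not called these were 2.11 and 0.83. A step of more than 1 unit between 0 and 60 min was present in 17 of these 49 and in 9 of the 138 called genes. These numbers follow from the way the test is built. The plot of pulse difference against the step from 0 to 60 min shows it for single genes.

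**Figure D4:**
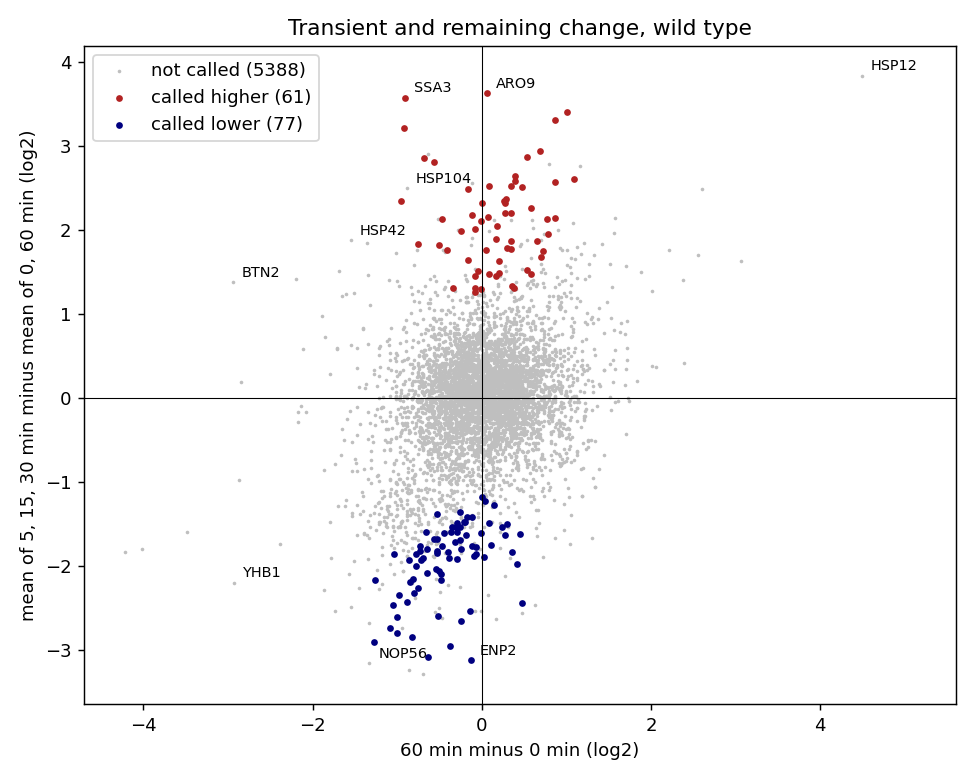
Pulse difference (vertical axis, mean of 5, 15 and 30 min minus mean of 0 and 60 min, log2) against the step from 0 to 60 min (horizontal axis, log2) for the 5526 genes tested in the wild type; red points are the 61 genes called higher, blue points the 77 called lower and grey points the others. HSP12 lies far to the right, 4.49 higher at 60 than at 0 min, and BTN2 to the left.

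Most called genes had their extreme at 5 or 15 min. The extreme was at 5, 15 and 30 min in 24, 35 and 2 of the 61 rises, and in 17, 57 and 3 of the 77 falls. The medians of the rises were 1.04, 3.20, 3.59, 2.82 and 1.14, and those of the falls -0.67, -2.76, -3.14, -2.37 and -1.15. These counts changed with the scaling, and the rises and falls were not tested against each other. With equal median absolute deviation 33 rises and 30 falls had their extreme at 5 min, and with quantile normalization the most common time was 30 min for the rises (28 of 61) and 5 min for the falls (32 of 77). YGP1, a secreted glycoprotein, and PHM8, a phosphatase, were the 2 rises highest at 30 min. NOP19, GDT1 and FAA4 were the 3 falls lowest at 30 min.

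The test favours genes whose end arrays lie close together, so a small step from 0 to 60 min in the called genes follows from how they were chosen and is given as a description. The step had a median of 0.19 in the rises, with 40 of 61 higher at 60 than at 0 min, and of -0.39 in the falls, with 64 of 77 lower. Among the rises the step was closest to 0 in RGI1, PHM8, YPK2, TPS1 and AGP2: RGI1, of respiratory growth, stood at 1.56 on both end arrays. Among the falls it was closest to 0 in RTT10, CIN2, GRC3, NOP19 and RPF1: RTT10, a tRNA modification partner, stood at -1.05 on both. GRC3, a nucleolar polynucleotide kinase, stood at -1.57 and -1.54 at the ends and at -3.75, -3.74 and -2.83 in the pulse, and its difference turned from -1.89 to 0.02 with quantile normalization. The rises with most left at 60 min were TFS1, an inhibitor of carboxypeptidase Y, at 1.91 after 0.82, ARO10 (0.75 after -0.26), GCY1, a glycerol dehydrogenase (1.05 after 0.18), DDR2 (1.43 after 0.56) and HSP26 (1.02 after 0.16). The falls with most left were BRX1, MYG1, NOP15, IMD4 and NHP2, with MYG1 at 0.34 at 0 min and -0.92 at 60 min.

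Histone genes had their lowest values at 30 min and did not pass the test. All 10 tested had a negative difference and 0 were called (4 at an unadjusted p under 0.05 in limma, beside 22% of all genes). All 10 had their lowest of the 5 arrays at 30 min, as did 9 of 10 with quantile normalization and with equal median absolute deviation. Over all genes tested 20.4% had the most extreme of the 5 arrays, in the direction of the pulse difference, at 30 min. So had 6 of 10 genes in the flippase list and 22 of 64 mitochondrial ribosomal protein genes, and the lists were not tested against each other. HHT1, an H3 gene, had levels of -0.05, -0.50, -0.73, -1.84 and -0.03 (-0.99 ± 0.40, adjusted p = 0.202). HTA2, an H2A gene, had levels of 0.55, 0.22, -0.60, -1.25 and 0.52 (-1.07 ± 0.41, adjusted p = 0.177). HTB2, an H2B gene, had levels of 0.87, 0.61, -0.17, -0.64 and 1.07. In each the ends lay together and the 3 pulse arrays went down one after the other. CLN2, a G1 cyclin, stood at -0.86, -1.83, -2.43, -1.37 and 0.44 (adjusted p = 0.0885). Pairs of histone genes are near-identical and may share probe signal.

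Of the transcription factors that drive these programmes, those tested did not pass. HSF1 had levels of -0.41, -0.74, -0.62, -1.92 and -0.73 (-0.52 ± 0.41, adjusted p = 0.516). MSN4 had levels of -1.21, 0.86, 0.71, 0.01 and -0.24 (1.25 ± 0.38, adjusted p = 0.119), and MSN2 lacked 2 of its 5 values and was not tested. Only YAP6, a bZIP factor, was called among 30 regulators of stress and growth, beside 2.5% of all genes called. Its levels were 0.43, 2.38, 2.24, 2.04 and 0.96 (1.53 ± 0.27, adjusted p = 0.0401). USV1, a zinc finger factor, had levels of -0.44, 2.11, 2.92, 2.48 and 1.14 (2.15 ± 0.47, adjusted p = 0.0555). SFP1, an activator of ribosome genes, stood at 0.19 ± 0.32 (adjusted p = 0.788). RPN4, which drives the proteasome genes, had levels of 1.09, 2.13, 2.37, 1.42 and 0.96 (0.94 ± 0.32, adjusted p = 0.149). The 32 proteasome genes had a median of 0.44 and 0 calls, with 9 at an unadjusted p under 0.05 in limma, beside 22% of all genes. Of the 32, 31 had a positive difference. In 16 all pulse arrays lay above both ends, beside 19.4% of all genes, and in 1 below both, beside 19.6%.

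Of the 35 lists 15 held no called gene, where 2.5% of all genes were called. Beside those named, they were mitochondrial ribosomal proteins (median 0.09), amino acid biosynthesis (-0.33), the respiratory chain and ATP synthase (0.53), endoplasmic reticulum folding (-0.02), the CCT chaperonin with prefoldin (-0.42), autophagy and vacuolar proteases (0.61), ergosterol synthesis (-0.21), flippases and their kinases (0.04), cell cycle regulators (-0.28), and Ras and protein kinase A (0.46). Of 8 subunits of the CCT chaperonin, which folds actin and tubulin, 7 had a negative difference and 4 had all pulse arrays below both ends, beside 19.6% of all genes. Their median was -0.44. The respiratory chain had 19 of 34 genes with all pulse arrays above both ends, beside 19.4% of all genes. So had 11 of 18 genes of autophagy and vacuolar proteases. All pulse arrays lay below both ends in 24 of 39 translation factors and 15 of 21 aminoacyl-tRNA synthetases, beside 19.6%. In these 4 lists 0 genes had all pulse arrays beyond both ends the other way.

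The members of other lists with the largest differences had varied shapes and mostly missed the threshold. PEP4, the vacuolar protease that activates others, had levels of 0.76, 2.47, 3.04, 2.44 and 1.48 (1.54 ± 0.32, adjusted p = 0.0525), and APE1, a vacuolar aminopeptidase, 0.93, 2.49, 3.29, 2.61 and 1.68. PST1, a cell wall protein, was highest late, at 0.03, 0.77, 2.85, 3.20 and 0.98 (1.77 ± 0.69, adjusted p = 0.184), as were SED1, a cell wall glycoprotein (0.13, 1.67, 2.34, 2.40 and 1.18), and RIP1, the iron-sulfur protein of respiratory complex III (0.12, 1.13, 1.55, 2.38 and 0.34). In these 3 the 30 min array was the highest and the 60 min array lay below it by more than 1 unit. In sphingolipid metabolism the signs were mixed. YPC1, a ceramidase, stood at 1.64 ± 0.41 (adjusted p = 0.0787), and SUR2, the sphinganine hydroxylase, at -1.60 ± 0.35 (adjusted p = 0.0555). ELO3, an elongase of very long fatty acids, had levels of -0.33, -1.67, -2.27, -1.35 and -0.38 (adjusted p = 0.0578), and ERG3, a sterol desaturase, -0.44, -2.34, -1.87, -0.36 and 0.53 (adjusted p = 0.166). HRP1, a factor of mRNA 3' end formation, was the only call among 29 tested genes of mRNA decay and stress granules. Its levels were 0.14, -2.15, -1.76, -1.14 and 0.02 (-1.76 ± 0.33, adjusted p = 0.0447). Over all genes tested 2.5% were called.

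The pulse was also measured on the 5 arrays of the KIN82 deletion, which had no part in choosing the genes. In that strain both end arrays carry the word repeat in their titles and no pulse array does, so there the pulse and the repeat cannot be told apart. Of 55 called rises with values on all 10 arrays, 54 had a positive difference in the deletion (98.2%), where 50% of all 5170 genes did. In 40 of the 55 (72.7%) every pulse array of the deletion lay above both its ends, beside 14.9% of all genes. Of 70 called falls, 70 had a negative difference (100%, beside 50%), and 62 (88.6%) had every pulse array below both ends, beside 12.6%. For the rises the median difference was 2.05 in wild-type cells and 1.42 without KIN82, and for the falls -1.83 and -1.52. The wild-type values chose these genes, so the smaller sizes in the deletion, in 51 of 55 and 50 of 70, are a description.

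ARO9 had levels of 1.0, 3.02, 4.53, 3.52 and 1.14 in the deletion, and URA7 -0.09, -1.92, -4.20, -2.92 and -0.30. Their pulse differences were 2.62 and -2.82 there, beside 3.63 and -2.80 in the wild type. GDB1 had levels of -0.08, 0.61, 0.93, 1.93 and -0.23 in the deletion, a difference of 1.31 beside 2.94. YPK2, a kinase of sphingolipid signalling, was the rise without a positive difference in the deletion. It stood at 0.68, 2.29, 1.78, 1.85 and 0.67 in the wild type and at 1.04, 0.48, 0.62, 0.09 and -0.11 in the deletion. The difference between strains of -1.37 ± 0.50 did not pass (limma adjusted p = 0.999). Over all 5170 genes the strain by pulse term passed in 0 (0%), with 62 genes at an unadjusted p under 0.05, and 0 passed under each of the other settings run with limma. With the time shared by both strains as a block, an alternative added after the data were seen, 0 passed and 173 had an unadjusted p under 0.05.

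**Figure D5:**
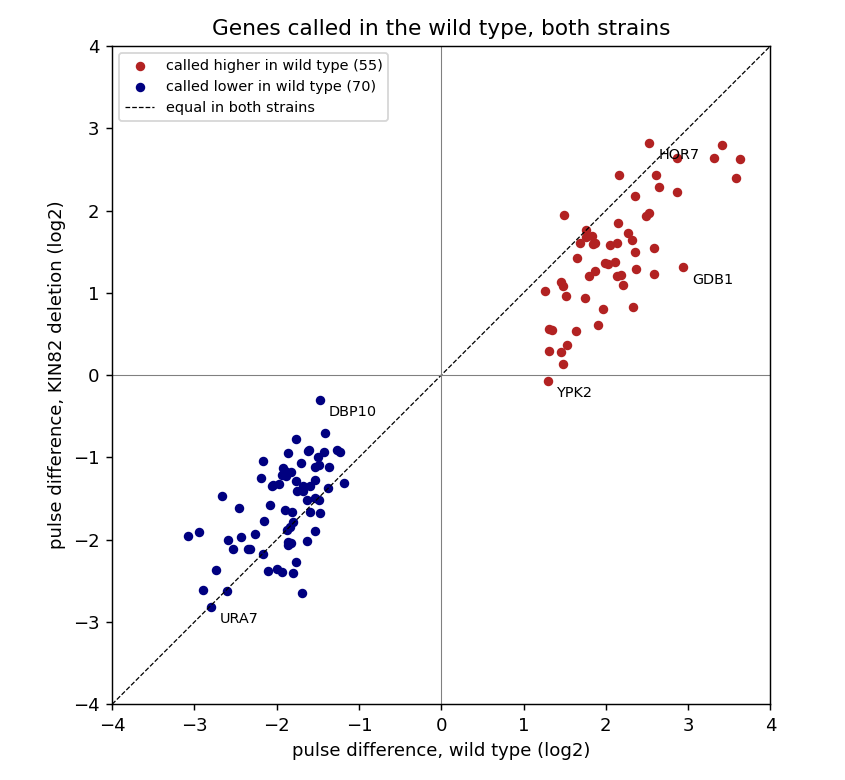
Pulse difference in the KIN82 deletion (vertical axis, log2) against that in the wild type (horizontal axis, log2) for the genes called in the wild type with values on all 10 arrays, 55 called higher in red and 70 called lower in blue; the dashed line marks equal differences. YPK2 (1.30 and -0.07) is the only called rise below 0 in the deletion.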

How the data were processed

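The deposited values of the series' value table are log ratios of the 2 channels of each array, read as log2; the labels and the table name no scanner, dye, background correction, normalization or base of the logarithm. The medians of the wild-type arrays as deposited lay between -0.15 and -0.03, with 5844 to 5938 values per array. Each array was centred on its median. Symbols came from the RefSeq gene table (R64) for 5484 rows, and 499 keep their systematic names. Genes with values on all 5 wild-type arrays entered a limma model (version 3.58.1, R 4.3.3) with lmFit, eBayes and 2 coefficients, which leaves 3 residual degrees of freedom plus 4.80 from the prior (prior SD 0.32). The strain by pulse term was fitted on 10 arrays with 6 residual degrees of freedom. Scripts were tested on simulated data. The number of arrays limits the precision. Named genes were the 10 largest called differences each way, up to 4 members of each list with called ones first, a fixed set of stress and ribosome genes, the 5 lowest strain by pulse p-values, and the called genes with most and least left at 60 min. The members and lists were chosen with earlier results of these data known. The lists hold 2 errors: CTF19, a kinetochore gene, stands in the phosphate list, and CRF1, a corepressor of ribosomal protein genes, in the flippase list. Of 1114 list members measured, 1061 were tested.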

Additional observations from a re-analysis of the deposited data

Results flagged for a closer look

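The wild-type and deletion pulses went opposite ways in 3 of the 5 genes with the lowest strain by pulse p. In these 3 every wild-type pulse array lay below both its ends and every deletion pulse array above both. The 5 genes were picked by that p, which favours opposite directions, and the share of such genes over all genes was not computed. SIR4, a silencing protein, differed by 1.77 ± 0.55 (deletion minus wild type, limma unadjusted p = 0.00794). The unnamed frame YER087C-A differed by 1.32 ± 0.36 (unadjusted p = 0.00363) and KEL1, of polarised growth, by 1.21 ± 0.37 (unadjusted p = 0.00728). SIR4 had levels of 0.20, -0.20, -1.39, -0.40 and 0.20 in the wild type and -0.81, -0.03, 0.72, 0.56 and -0.16 in the deletion. After adjustment over 5170 genes p was 0.999 for each, also with time as a block. The other 2 were PHM6 (-1.45 ± 0.43) and YML010W-A (-1.27 ± 0.39), near 0 in the wild type and negative in the deletion.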

How the results depend on the processing

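The count of 138 called genes became 0 with quantile normalization, 2 with equal median absolute deviation, 24 with the spread taken from all 10 arrays, where 5170 genes had values, and 443 at an adjusted p under 0.1. On these 5170 genes alone, with the spread of the wild-type arrays, 97 passed (an alternative added after the data were seen). Leaving out 1 array gave 0 to 260, where a lone end array is assumed to vary like the pulse arrays. Values as deposited without centring gave 195, of which 35.9% were higher, beside 44.2%; genes with at least 4 values gave 115, robust eBayes 134, and leaving out rows of at most 2 decimals 136. All called genes kept their direction where they had a value, except 9 with quantile normalization: GLK1 (-0.09), GRC3 (0.02), AIM17 (-0.10), STI1 (-0.06), INA1 (0.18), BUD22 (0.19), AAH1 (0.11), NOG2 (0.26) and TRM11 (0.23). Quantile normalization and equal median absolute deviation remove the wider spread of the pulse arrays by construction. Whether that spread is part of the response was not tested. The deletion counts of matching direction moved by little (99.2% to 95.2% of called genes). Pairing the strains by time, with time as a block (3 residual degrees of freedom, added after the data were seen), left the strain by pulse count at 0, with 173 genes at an unadjusted p under 0.05 beside 62. Within the wild type the labels pair no arrays and do not say whether the samples share a culture. Of named genes that were not called, TPS2, SSA1, SSA2, HSP42, CUR1, GRX2, EDC2 and YAK1 turned with quantile normalization, and BTN2 and CUR1 with equal median absolute deviation. Shares of promoters with a motif were not run, since no promoter sequences were used here. Arrays without second samples limit every p-value given.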

Other observations

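In all, 10 pairs of called genes were neighbours in the RefSeq order of protein-coding genes (R64), which held 135 of the 138 called genes. Left out of this count were YLR217W and YOR146W, which have no RefSeq entry, and a called gene whose entry is not marked as protein-coding. The share of such pairs over all genes was not computed, so the count is a description. In 6 pairs both rose: HXT7 and HXT6, PHM8 and KRE29, ARO9 and YHR138C, YPK2 and PGM2, CIT1 and ATO2, and FIT2 and FIT3. In 2 pairs both fell: GRC3 and RIX7, and TRM11 and HRP1. In 2 pairs the genes moved apart: HAS1, a helicase of 60S assembly, fell by 2.10 ± 0.38 on the log2 scale beside TDA1, a kinase gene that rose by 1.45 ± 0.25, and CIN2, a tubulin folding gene, fell by 1.61 ± 0.29 on the log2 scale beside HSP82, which rose by 1.76 ± 0.29. YHR138C, next to ARO9, had levels of 1.13, 2.86, 3.67, 2.81 and 1.30 and rose by 1.90 ± 0.32. Among the phosphate genes PHO11 and PHO12, near-identical acid phosphatases, stood at -2.20 ± 0.46 (limma adjusted p = 0.052) and -2.55 ± 0.53 (adjusted p = 0.0519), while PHM8 rose by 2.11 ± 0.35.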
